A study of Drosophila melanogaster with 9 samples.

Results

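Hoppel, listed in the tables under the name '1360', is a DNA transposon of the P-element superfamily that moves as DNA and is flanked by inverted repeats. It was taken by its name, as 1 of 117 transposable elements in the tables of 5 Drosophila melanogaster testis libraries and as 1 of 86 elements in the combined table of 4 more, so it was described in all 9 small RNA libraries of the study. In fly gonads, PIWI-interacting RNAs (piRNAs) guide Piwi proteins to transposon transcripts, and the Piwi proteins Aub and Ago3 cut transcripts of opposite strands in a cycle that makes more piRNAs. Copies of hoppel are common in pericentric heterochromatin and on the small dot chromosome. Sequence of hoppel also lies within the Suppressor of Stellate repeats on the Y chromosome, whose piRNAs silence the X-linked Stellate genes in the male germ line. The tables count reads per element and give neither the strand nor the genomic copy, so reads of those repeats and of other hoppel copies cannot be told apart here.

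The spermatogonia group held 1 library from bam and 1 from bgcn mutant testes, used whole, in which germ cells go on dividing as early mitotic cells. The spermatocyte group held 1 library from can and 1 from sa mutant testes, whose apical tips, the site of early mitotic germ cells, had been cut away. The labels do not give the alleles of these 4 genotypes. Whole testes of y w flies, of ago3 (t2/t3) mutants, of ago3/TM6 heterozygotes, of aub (N11/HN2) mutants and of aub/CyO heterozygotes gave 1 library each. TM6 and CyO are balancer chromosomes, and each mutant was set against the heterozygote that carries a balancer, so the genotype at aub or ago3 and the balancer differ together. Between the stage groups the mutant stock, the stage and the cutting of the tips differ together and cannot be told apart.

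Table totals were 262757 to 580459 reads in the 5 libraries of the stage and y w tables and 8434 to 102700 reads in the 4 libraries of the combined table. No source used here gives the read lengths counted, so the values are for transposon-mapping small RNAs and the part of them that were piRNAs is not known. The tables hold transposons and no protein-coding marker genes. All 10 listed elements typical of somatic gonadal cells (gypsy, ZAM, Idefix and others) had reads in each of the 9 libraries. In these whole tissues fewer cells of a type and less RNA per cell cannot be told apart. A range in brackets after a value of 1 library, or of a ratio of 2, is its 95% exact binomial interval, which covers only the error of counting, since PCR copies are not independent molecules.

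In the stage, y w and combined tables hoppel was the largest or the second largest source of transposon-mapping reads in every library except the 2 mutants of Piwi proteins; in the tables over all read lengths, described further on, it ranked lower in the aub heterozygote (19 of 179). It had 23481 reads in bam, 45905 in bgcn, 90985 in can, 21788 in sa and 47813 in y w. As a share of all transposon-mapping reads these were 5.35% (5.29 to 5.42), 7.91% (7.84 to 7.98), 17.51% (17.41 to 17.61), 8.29% (8.19 to 8.40) and 13.4% (13.3 to 13.5) in the same order. Thus can was highest, y w came next, and bgcn and sa lay close together above bam. In the combined table hoppel had 13886 reads in aub/CyO testes against 66 in the aub mutant, and 19698 in ago3/TM6 testes against 1827 in the ago3 mutant. The shares were 16.5% (16.3 to 16.8), 0.783% (0.606 to 0.995), 19.2% (18.9 to 19.4) and 5.53% (5.29 to 5.79). Both heterozygotes were far above both mutants, and the aub mutant was the lowest of the 4.

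**Figure D1:**
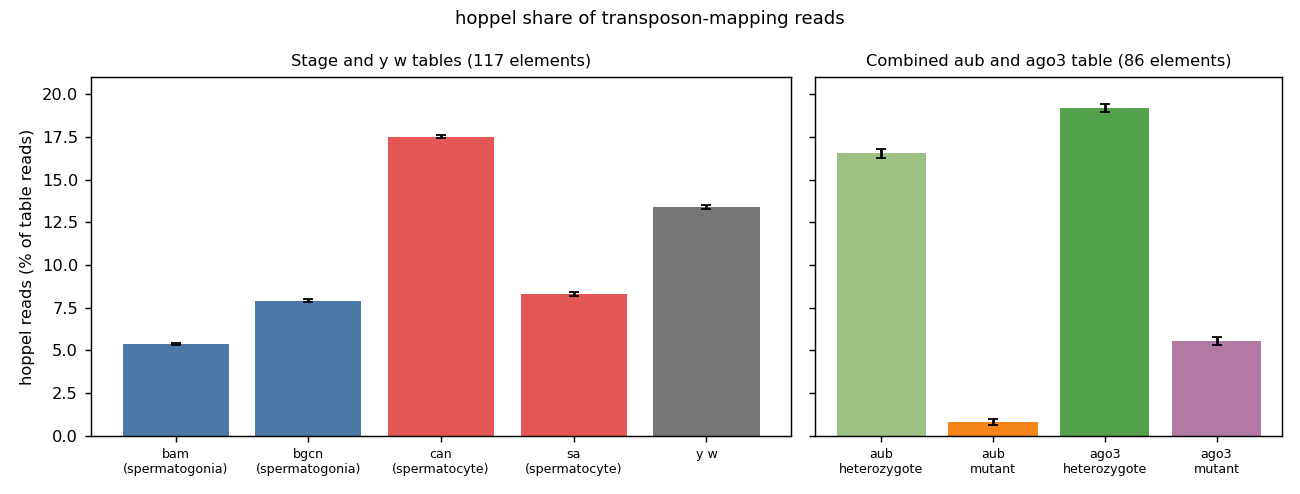
Share of transposon-mapping reads that mapped to hoppel (%, vertical axis from 0) in each of the 9 libraries, with 95% exact binomial intervals as error bars; the left panel uses the 117 elements of the stage and y w tables and the right panel the 86 elements of the combined table. The can library (17.5%) stands above sa (8.29%), and the aub mutant (0.783%) is the lowest of all.

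In these tables hoppel came first in bgcn, can, y w and, within the combined table, both heterozygotes. In bam it ranked 2 of 117, behind the LINE Doc with 6.54% of reads and ahead of the retrotransposon roo with 4.98%. In sa it also ranked 2, between the LINE baggins with 9.32% and the retrotransposon opus with 7.84%. The lead of hoppel over the next element was widest in the ago3 heterozygote, where baggins followed with 7.45%, and in can, where Dsim-ninja followed with 9.44%. In the ago3 mutant hoppel ranked 4 of 86, behind copia with 3640 reads, opus with 2981 and baggins with 1913, and had 1827 itself. In the aub mutant it ranked 33 of 86, next to micropia with 75 reads and ZAM with 59, and the largest source there was the retrotransposon 412 with 568 reads.

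In spermatocyte testes hoppel took a mean of 12.9 ± 6.52% of transposon-mapping reads, against 6.63 ± 1.81% in spermatogonia testes (SD, n = 2 each). The difference was 6.27 percentage points, the second largest gain in share among the 117 elements, after Dsim-ninja with 6.63 points and just before baggins with 6.13. After TMM scaling, which sets libraries against the typical element, hoppel had 45696 RPM in bam, 64888 in bgcn, 229533 in can and 90322 in sa. The can library was thus 2.54-fold above sa, while bgcn was 1.42-fold above bam. The spermatocyte libraries were both above the spermatogonia libraries, though sa exceeded bgcn by a share ratio of only 1.05 (1.03 to 1.07). The interval of that margin lay above 1, but it takes reads as independent and may be too narrow. The margin was far smaller than the ratio of 2.11 (2.08 to 2.14) between can and sa, which belong to 1 group.

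The fit over all elements gave hoppel a log2 fold change of 1.53 (SE 0.53, edgeR quasi-likelihood test, two-sided, adjusted p = 0.0410, n = 2 libraries in each group), so it rose in spermatocyte testes at an adjusted p of 0.05. Of the 114 elements with enough reads to be tested, 10 were called higher in that fit (8.77%), and 12 were called in either direction (10.5%). By log2 fold change hoppel ranked 18 of 114 from the highest, and the median of all elements was -0.05. By share alone, a two-sided exact permutation test over the 4 libraries gave p = 0.33, the smallest that 2 libraries against 2 allow. The shares of the groups did not overlap for hoppel, as for 15 of 114 elements in the same direction (13.2%) and 59 in either (51.8%).

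The call was lost without the can library and under several other settings. Without can its fitted value was 0.72 (SE 0.59, edgeR adjusted p = 0.671), whereas without sa it was 2.35 (adjusted p = 0.0258), without bam 1.30 (0.0374) and without bgcn 1.81 (1.39e-03). The value was larger than reported in DESeq2 (1.66, adjusted p = 0.170) and with median-ratio (RLE) factors (1.66, edgeR adjusted p = 0.115), and the same with y w added to the fit (1.53, edgeR adjusted p = 0.0514), though none of these passed. It was smaller with library totals (0.96, edgeR adjusted p = 0.150) and with the authors' own factors (0.60, edgeR adjusted p = 0.454). DESeq2 called 11 of the 114 elements higher (9.65%) and 17 in either direction (14.9%), library totals 4 (3.51%) and 6 (5.26%), and the authors' factors 2 (1.75%) and 10 (8.77%). The median of all elements shifted to -0.55 with library totals and to -0.88 with the authors' factors. Taken relative to that median, hoppel was higher by 1.58 on the log2 scale after TMM scaling, 1.51 with library totals, 1.48 with the authors' factors and 1.62 in DESeq2. On the authors' normalised scale the 4 libraries had 21979 (bam), 39398 (bgcn), 64637 (can) and 28198 (sa) reads, so that sa lay below bgcn and the groups overlapped (exact permutation test, two-sided, p = 0.667). The summed share of the 10 elements typical of somatic gonadal cells was 10.5% in bam and 9.23% in bgcn against 4.81% in can and 5.98% in sa. In the reported fit none of these 10 elements was called, where 12 of all 114 tested elements were (10.5%). Their median log2 fold change was -0.19, against -0.05 over all elements. Single members differed in direction, from -2.47 (gypsy5) to 1.08 (Stalker2), so the fall of the sum was not shared by all 10. The part of cell content in the stage values of hoppel was not tested.

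**Figure D2:**
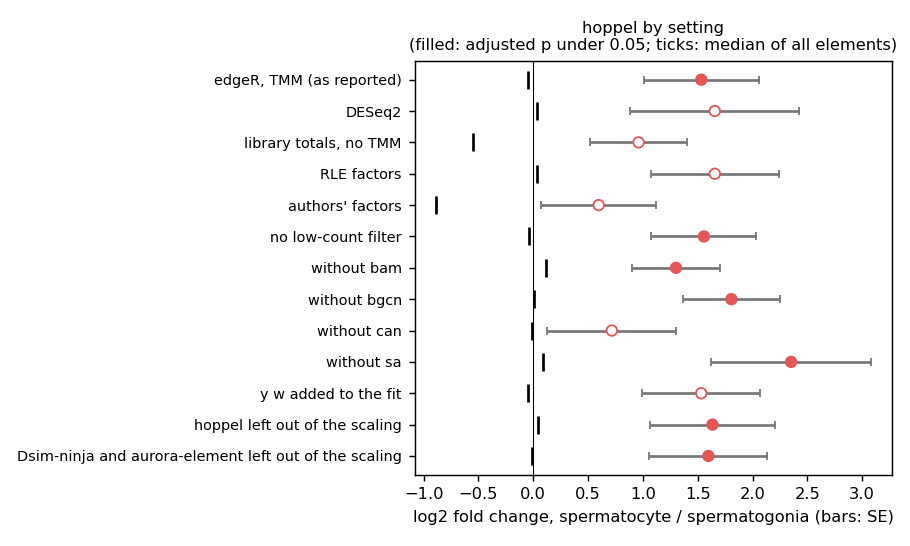
Log2 fold change of hoppel between spermatocyte and spermatogonia testes (horizontal axis, bars are SE) in the reported fit and under each other setting (rows), with filled points for an adjusted p under 0.05 and black ticks for the median of all elements. The value is lowest with the authors' factors (0.60) and without can (0.72). The distance to the tick is 1.48 to 1.62 in the settings that change only the scaling, which moves all elements about alike. Without can it is 0.73.

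Whole y w testis, which holds germ cells from gonioblasts to mature sperm, had a hoppel share of 13.4%, within the range of the 4 stage libraries (5.35 to 17.5%). It was 1.62-fold above sa (1.59 to 1.64), 1.69-fold above bgcn (1.67 to 1.72) and 2.50-fold above bam (2.46 to 2.54), and can was 1.31-fold above y w (1.29 to 1.32). On the authors' normalised scale y w had 65057 reads and stood just above can with 64637, and so outside the range of the stage libraries. With 1 y w library no test was made. Over the 86 elements that both sets of tables name, hoppel took 13.5% of reads in y w (13.4 to 13.6), 16.5% in the aub heterozygote and 19.2% in the ago3 heterozygote. These 3 whole-testis libraries, of y w and of the aub and ago3 heterozygotes, were in different tables whose read lengths may differ. The values are therefore given side by side only.

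Hoppel had more reads than any other DNA transposon of the tables, and most other members of the class did not pass the stage test. Of 24 names listed for the class, 15 were in the stage tables and all 15 were tested. Besides hoppel, the foldback element FB rose and the Tc1-type transposon Bari1 fell, so 2 of 15 were called higher and 1 lower, while 12 did not pass (10.5% of all tested elements were called). The median log2 fold change of the 15 was -0.05, the same as over all elements. Bari1 had 13953 reads in bam, 6636 in bgcn, 1391 in can and 302 in sa, and edgeR put its log2 fold change at -2.94 (SE 0.70, quasi-likelihood test, adjusted p = 8.82e-04). Both spermatogonia libraries were above both spermatocyte libraries. Its call was lost without bam (-1.98, adjusted p = 0.349) and without sa (-2.09, 0.158). FB had 44, 58, 102 and 410 reads in the same order, with sa far above the rest, and its log2 fold change in the same fit was 3.54 (SE 1.25, edgeR adjusted p = 0.0493). Its call held in 5 of 12 other settings, was lost with library totals (0.102), RLE factors (0.115), the authors' factors (0.0979) and y w added (0.0539), and was lost without bam (0.334), without bgcn (0.393) and without sa (0.414).

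Hoppel made up 45.4% of the reads of the class in bam, 62.8% in bgcn, 86.4% in can, 76.2% in sa and 81.9% in y w. The other 14 members together took 6.80% (bam) and 5.09% (bgcn) of the reads left after removing hoppel, against 3.33% (can), 2.82% (sa) and 3.42% (y w). The group means were 5.94 ± 1.21% for bam and bgcn and 3.08 ± 0.363% for can and sa (SD, n = 2 each, exact permutation test, two-sided, p = 0.33, the smallest possible). In this sum the spermatogonia libraries were the higher ones. Bari1 alone gave 13953 of the 28234 reads in bam and 6636 of the 27195 in bgcn. Without Bari1, left out after seeing the data, the other 13 members took 3.44% (bam), 3.85% (bgcn), 3.01% (can) and 2.69% (sa), with means of 3.64 ± 0.288% and 2.85 ± 0.222% (SD, n = 2 each, exact permutation test, two-sided, p = 0.33), so that most of the difference between the groups was in Bari1.

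**Figure D3:**
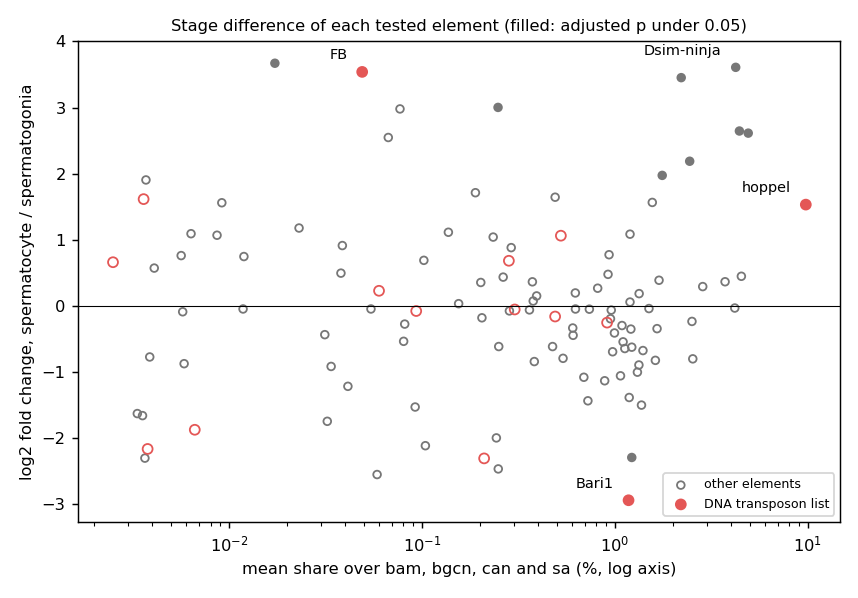
Log2 fold change between spermatocyte and spermatogonia testes (vertical axis) against mean share over the 4 stage libraries (%, log axis) for the 114 tested elements, with DNA transposons in red and elements past an adjusted p of 0.05 filled. Hoppel is the rightmost point at 1.53; of the DNA transposons only FB (3.54) and Bari1 (-2.94) are also filled.

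Loss of either Piwi protein came with fewer hoppel reads. In the combined table the share ratio of mutant to heterozygote was lower in the aub pair (0.0473) than in the ago3 pair (0.288). Over all read lengths, with 179 elements in the total, the order was the opposite (0.246 and 0.116). Each genotype had 1 library, so no replicate checks these ratios and they were not tested, and the expression of aub and ago3 was not analysed here. On the authors' normalised scale, called the level below, hoppel went from 12624 in the aub heterozygote to 73.3 in the mutant, 172-fold lower (135 to 223). In the ago3 pair the level went from 24325 to 1479, 16.4-fold lower (15.7 to 17.3). Relative to the reads of all 86 elements, the share of hoppel was 21.1-fold lower in the aub pair (16.6 to 27.3) and 3.47-fold lower in the ago3 pair (3.30 to 3.64). Hoppel was thus lower in each mutant by more than the total was.

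A sum of at least 100 reads over the aub pair was reached by 72 elements, whose median level in the mutant was 0.0664 of the heterozygote. The level of hoppel was 0.00581 of the heterozygote (0.00449 to 0.00740), which ranked 7 from the lowest of the 72. A level at or below 0.5 was found for 54 of these elements (75%), a share ratio at or below 0.5 for 35 (48.6%), and a share ratio of at least 2 for 21 (29.2%). The elements below hoppel were transib2, Dsim-ninja, invader6, aurora-element, hopper2 and pogo, and of these Dsim-ninja went from 4509 to 6 reads. In the ago3 pair 79 elements had at least 100 reads, with a median level of 0.240, and hoppel at 0.0608 (0.0579 to 0.0638) ranked 9 from the lowest. There 72 of 79 elements had a level at or below 0.5 (91.1%) and 12 a share ratio at or below 0.5 (15.2%). Over the 70 elements with enough reads in both pairs, the level ratio in the aub pair divided by that in the ago3 pair was 0.0955 for hoppel, rank 13 from the lowest, with a median of 0.330.

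Within the combined table hoppel was the most abundant element of both heterozygotes. Its part of what was missing in the mutants was somewhat above its share of the heterozygotes. That follows from its level being lower by more than the total was, and is no separate result. Summed over its 86 elements, the level was 8.14-fold lower after loss of Aub and 4.74-fold lower after loss of Ago3. Hoppel accounted for 18.7% of the missing level in the aub mutant and for 22.8% in the ago3 mutant. Its shares of the heterozygotes were 16.5% (aub) and 19.2% (ago3). Without hoppel the totals were 6.85-fold and 4.06-fold lower.

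**Figure D4:**
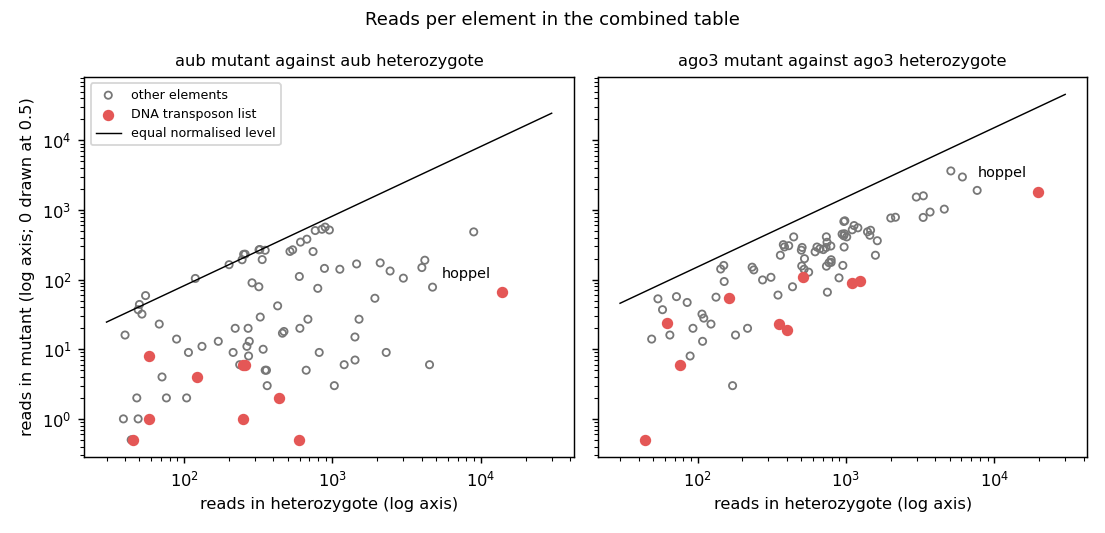
Reads per element in each Piwi protein mutant (vertical log axis, counts of 0 drawn at 0.5) against its heterozygote (horizontal log axis) in the combined table, with DNA transposons in red and a line where the authors' normalised levels are equal. Hoppel is the rightmost point in both panels, at 13886 and 66 reads in the aub pair and at 19698 and 1827 reads in the ago3 pair, far below the line in each.

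Of the 9 other DNA transposons in the combined table, 6 had at least 100 reads in the aub pair. All 6 had a level at or below 0.5, as 75% of all elements did, and all 6 a share ratio at or below 0.5, as 48.6% did. Their median level was 0.0169, against 0.0664 over all elements. All 6 reached 100 reads through the heterozygote. A minimum reached in this way favours elements that are low in the mutant, here and among all elements counted. Transib2 went from 591 reads to 0, a level at least 161-fold lower if 0 is read as 3 reads in the library. Pogo, a Tc1-type transposon, went from 439 to 2 reads, a level of 0.00557 (0.000672 to 0.0202), and hopper2 from 248 to 1 read, a level of 0.00493 (0.000124 to 0.0277). Their intervals include the value of hoppel. Bari1 went from 249 to 6 reads (0.0295, interval 0.0107 to 0.0650), the transposon hobo from 259 to 6 (0.0283, interval 0.0103 to 0.0625) and S-element from 123 to 4 (0.0397, interval 0.0107 to 0.104). These 3 levels were above that of hoppel, with intervals that do not meet.

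In the ago3 pair the 6 members with at least 100 reads all had a level at or below 0.5, which is near the 91.1% of all elements. A share ratio at or below 0.5 was found for 4 of the 6, against 15.2% of all elements. Only hobo, with 110 reads, also reached the minimum in the mutant, and the others reached it through the heterozygote. As in the aub pair, this favours elements that are low in the mutant, so the count is no test of the class. Levels close to that of hoppel were found for Bari1 (0.0540, interval 0.0431 to 0.0671), transib2 (0.0513, interval 0.0412 to 0.0631) and hopper2 (0.0425, interval 0.0266 to 0.0648). Pogo was lower at 0.0311 (0.0185 to 0.0492). The exceptions by share were hobo, with a share ratio of 0.662, and S-element, with 1.05. The 3 members with fewer reads were hopper, Tc1-2 and INE-1, which had 45, 58 and 58 reads in the aub heterozygote and 0, 1 and 8 in the mutant. In the ago3 pair their reads went from 76 to 6, from 44 to 0 and from 62 to 24. By share, hopper and Tc1-2 were lower in both mutants. INE-1 went the other way, with share ratios of 1.37 in the aub pair and 1.20 in the ago3 pair, from few reads.

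The 10 elements typical of somatic gonadal cells were described in the mutants too. Their summed share went from 6.28% to 27.7% in the aub pair, and their summed level in the mutant was 0.542 of the heterozygote. In the ago3 pair the summed share was 6.01% of the heterozygote's reads and nearly the same in the mutant (1982 of 33018 reads), and the level was 0.210. Members moved in opposite directions by share in that pair. Share ratios were 0.368 for Idefix and 0.693 for Stalker2, against 2.88 for Tabor and 1.94 for gypsy. The nearly unchanged sum was thus not shared by all 10 elements. With these elements left out of the total, hoppel went from 17.65% to 1.08% of reads in the aub pair and from 20.4% to 5.89% in the ago3 pair. The share of somatic cells in each testis was not measured here.

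Tables over all read lengths, deposited for the same 4 libraries, gave a share ratio nearer to 1 in the aub pair and farther from 1 in the ago3 pair. They list 179 elements, and hoppel went from 22229 to 4253 reads in the aub pair and from 23137 to 3740 in the ago3 pair. Every element of the combined table had at least as many reads here as there. Of the hoppel reads, 62.5% in the aub heterozygote and 85.1% in the ago3 heterozygote were in the combined table, against 1.55% in the aub mutant and 48.9% in the ago3 mutant. For all 86 elements together these parts were 7.76%, 46.4%, 1.04% and 12.9% in the same order, so hoppel reads were in the combined table more often than the average read in each library. The reads outside the combined table numbered 8343 and 4187 in the aub pair and 3439 and 1913 in the ago3 pair. The hoppel share of these outside reads was 0.626 of the heterozygote in the aub mutant (0.604 to 0.650) and 0.295 in the ago3 mutant (0.279 to 0.312). The share ratio over all lengths and all 179 elements was 0.246 (0.238 to 0.254) in the aub pair and 0.116 (0.112 to 0.120) in the ago3 pair. Over only the 86 elements of the combined table it was 0.256 (0.248 to 0.265) and 0.140 (0.135 to 0.144). Either way the order of the 2 pairs was opposite to that in the combined table. In the ago3 pair the ratios inside and outside the combined table were close (0.288 and 0.295). A ratio over all lengths also depends on how the reads split between these 2 parts. Over all lengths hoppel went from rank 1 of 179 to rank 25 in the ago3 pair and from rank 19 to rank 83 in the aub pair. The total reads of these tables were 1742807 in the aub heterozygote and 1354982 in the aub mutant. In the ago3 pair the total was higher in the mutant, with 274660 in the heterozygote and 381838 in the mutant.

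The elements whose pattern was most like that of hoppel were diver2, transib2, Dsim-ninja, hopper2 and aurora-element. Likeness was Pearson's r of log2 shares over the 86 shared elements, centred within each set of tables, over 9 libraries and among 71 elements with a mean share of at least 0.1% in both sets. The libraries share their totals, and the 2 sets of tables were normalised separately. The values of r were 0.93 for diver2, 0.91 for transib2, 0.90 for Dsim-ninja, 0.88 for hopper2 and 0.85 for aurora-element, with a median of 0.15 over the 71 elements. These values are descriptions and rest in part on the aub mutant, without which r over 8 libraries was 0.81, 0.73, 0.77, 0.68 and 0.71. Over the 4 libraries of the combined table alone r was 0.99, 0.99, 0.95, 0.99 and 0.93. Over the 5 libraries of the stage and y w tables it was 0.56, 0.06, 0.86, -0.48 and 0.88. Transib2 and hopper2 were thus not like hoppel across those 5 libraries. Spearman's rho over 9 libraries was 0.88, 0.65, 0.88, 0.55 and 0.72 in the same order.

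All 5 elements had their lowest share of the combined table in the aub mutant, as hoppel did. Their choice by likeness used that library, so it favoured this shared low. In the aub pair a share ratio at or below 0.5 was also found for 48.6% of all elements with enough reads. In the stage tables the 5 elements differed. Diver2, a BEL-type LTR retrotransposon, went from 1419 to 7 reads in the aub pair and from 1578 to 224 in the ago3 pair. In the stage tables it had 3688 reads in bam, 5912 in bgcn, 10893 in can and 8090 in sa, with its share highest in sa and not in can. The DNA transposon transib2 had 3844, 8389, 4315 and 1290 reads in these libraries and hopper2 had 1080, 1620, 1145 and 1004, so neither was highest by share in can. Dsim-ninja and aurora-element, BEL-type retrotransposons related to each other in sequence, had their highest share in can, as hoppel did. Over the 86 elements the share of Dsim-ninja was 0.489% in bam, 1.36% in bgcn, 9.48% in can and 5.67% in sa, a wider range as a fold than that of hoppel, though not in percentage points. The share of aurora-element went from 1.43% to 1.55% in the ago3 pair, whereas that of hoppel went from 19.2% to 5.53%.

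**Figure D5:**
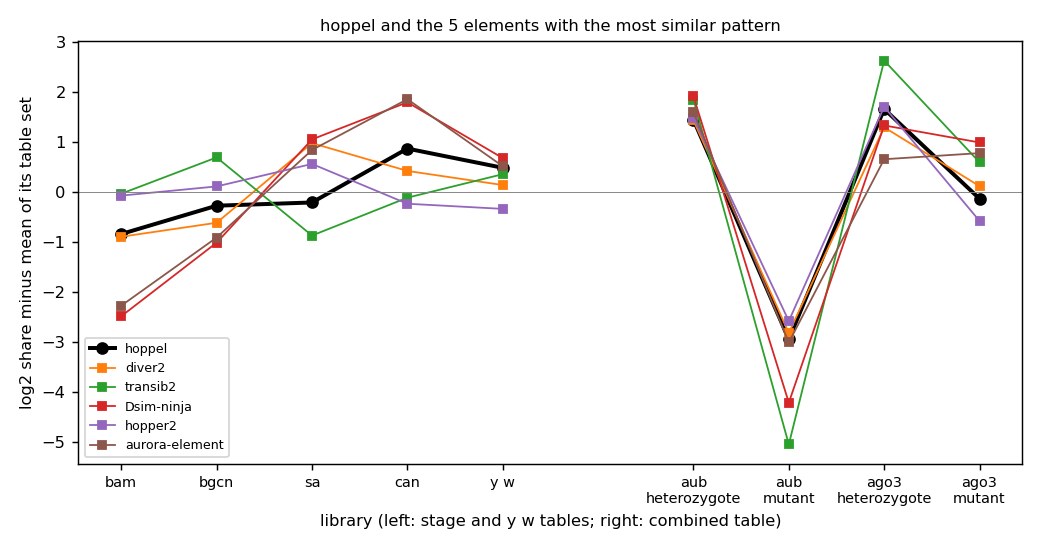
Log2 share of hoppel (black) and of the 5 elements most like it (colours) in each library, minus the mean of that element over its set of tables (vertical axis), with the stage and y w tables on the left and the combined table on the right. All 6 lines are lowest in the aub mutant within the right set, which the choice by likeness favours. In the left set transib2, hopper2 and diver2 do not share the peak of hoppel in can.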

How the data were processed

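Small RNA libraries came from hand-dissected testes (TruSeq chemistry), per the labels' protocols. Bowtie version 1 and DESeq2 are named in the submitters' processing notes without a role. Not given in the sources used here are the read lengths, the genome build and how multi-mapping reads were treated. For bam, bgcn, can, sa and y w, the deposited tables give raw counts and a normalised signal, which equals the count times 1 factor per library (0.936, 0.858, 0.710, 1.29 and 1.36, basis not given). For the mutants of Piwi proteins and their heterozygotes, a combined table was deposited of normalised signal, whose values are whole multiples of 1 step per library (tolerance 0.001 reads), from which reads were worked back, and a table per library of raw read counts over all lengths. Cluster tables were not used here.

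Stages were compared with edgeR 4.0.16 (R 4.3.3; TMM, quasi-likelihood test, Benjamini-Hochberg adjustment over all tested elements), keeping elements that reached 10 reads in 2 or more of the 4 libraries. The steps were tested on simulated data. The 2 libraries of a stage are different genotypes, so p-values measure the spread between them. Ratios of single libraries have exact conditional binomial intervals (SciPy 1.17.1). A pseudocount of 0.5 reads was used for likeness only. Alternatives were DESeq2 1.42.0, other scalings, no filter, libraries left out and other denominators. Named were hoppel, its neighbours in rank, the 5 largest elements, the 5 most alike and the listed DNA transposons past the test or past 2-fold with at least 100 reads in a pair. Members and lists were chosen with earlier results of these data known. Elements ranked below hoppel in a mutant were named after their values were seen.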

Additional observations from a re-analysis of the deposited data

How the results depend on the processing

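The direction of the stage difference of hoppel was the same in the 12 other settings tried, and its edgeR or DESeq2 call was lost in 6 of them. The log2 fold changes there were 1.66 with DESeq2, 0.96 with library totals, 1.66 with RLE factors, 0.60 with the authors' factors and 1.53 with y w added, and the values without 1 library ran from 0.72 to 2.35. The difference in share ran from 1.66 to 10.9 points without 1 library. The 12 calls over all elements (10 higher, 2 lower) became 6 with library totals (4 and 2) and 5 to 12 without 1 library, and split as 11 and 6 in DESeq2, 6 and 2 with RLE factors and 2 and 8 with the authors' factors. The 3 calls among DNA transposons became 1 with library totals, with RLE factors and with y w added, and 1 to 2 without 1 library. In y w hoppel had 16.7 reads per 100 reads of elements other than itself, Dsim-ninja and aurora-element. The share ratio of the aub pair, 0.0473, was 0.00581 as a level, 0.246 over all lengths and 0.626 outside the combined table. That of the ago3 pair, 0.288, was 0.0608 as a level, 0.247 against reads other than hoppel, 0.116 over all lengths and 0.295 outside the combined table. The ratios over all lengths used all 179 elements and pooled the reads inside and outside the combined table. Beyond that, the causes of these shifts were not tested. No paired analysis was possible because the labels give the libraries no shared replicate numbers. Outside-table, shared-element, Bari1 and Dsim-ninja settings were chosen after seeing the data. Each stage had 2 libraries of different genotypes and each other genotype 1, and some elements had few reads in the aub mutant, where counting intervals are wide.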
